A study of Homo sapiens with 12 samples.

Results

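Metallothioneins and zinc transporters set how much zinc a cell holds and how much of it is free. The 10 genes described here are 5 metallothioneins (MT2A, MT1X, MT1G, MT1F and MT1E), the zinc exporter SLC30A1 (ZnT1) and 4 importers of the SLC39 (ZIP) family, SLC39A1, SLC39A6, SLC39A7 and SLC39A10. They were chosen by symbol, and all 10 were listed both among the 28008 genes of a MUC1-C silencing experiment and among the 25435 genes of a MUC1-C overexpression experiment. Both experiments used LNCaP, an androgen receptor-positive human prostate cancer line, and asked what lowering or raising MUC1-C, the transmembrane subunit of the MUC1 mucin, does to the transcriptome. In the first, LNCaP-ER/tet-MUC1shRNA cells, which had been selected for resistance to the androgen receptor inhibitor enzalutamide (ENZ) and carry an MUC1 shRNA under a doxycycline (DOX)-inducible promoter, received 0.1% DMSO as vehicle or 500 ng/mL DOX for 7 days. The second set LNCaP cells against LNCaP/MUC1-C OE cells, in which MUC1-C is expressed from a lentiviral vector with a CMV promoter. Every group had 3 libraries.

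Metallothioneins are small, cysteine-rich proteins of the cytoplasm that bind zinc and copper and buffer the free metal. SLC30 proteins move zinc out of the cytoplasm, across the plasma membrane or into vesicles, and SLC39 proteins move it in. Excess zinc is sensed by the zinc-finger transcription factor MTF1, which binds metal response elements in the promoters of metallothionein genes and of SLC30A1 and raises their transcription. Normal prostate epithelium is known for its very high zinc content, and prostate carcinoma for the loss of it.

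Libraries of the silencing experiment held 28045894 to 45807989 counts, and those of the overexpression experiment 13806856 to 19208944. The shRNA's target, MUC1, had 26, 10 and 13 counts in the vehicle libraries (in the order of their replicate numbers, as in all lists below) but 3, 42 and 8 counts in those labelled DOX. The library labelled DOX replicate 2 therefore held more MUC1 counts than any vehicle library, and MUC1 did not pass edgeR's quasi-likelihood test with p-values adjusted by Benjamini and Hochberg's method (log2 fold change 0.12 ± 0.93 SE, adjusted p = 0.935, and -1.83 with adjusted p = 0.0617 without DOX replicate 2). This library also stood apart in listing 11.2% of genes at 0, against 28.0% to 38.1% in the other 5 libraries, so results are given with and without it where it changes them. No cells that received DOX without the shRNA were analysed here, so an effect of DOX and one of the shRNA cannot be told apart. Overexpression was seen in the counts of MUC1, which were 30, 25 and 31 for LNCaP and 9168, 9959 and 12622 for LNCaP/MUC1-C OE cells. The control columns of that table are named vector while the labels say wild-type, so an effect of the vector and one of MUC1-C cannot be told apart. All 10 luminal prostate markers had more than 3 counts in the control cells of both experiments, but their summed level in CPM (counts scaled to a common library size) was 4767 to 5166 in LNCaP-ER cells with vehicle and 356 to 372 in LNCaP cells. It was 5570 to 6004 CPM with DOX, where 5 of 10 rose and 1 fell (all genes: 12.8% and 14.5%). In LNCaP/MUC1-C OE cells it was 94.2 to 105 CPM, and 8 of 10 fell (all genes: 34.1%). Of the 10, 4 (KLK3, KLK2, TMPRSS2 and FOLH1) had 3 counts or fewer in every library of these cells. EPCAM had 54, 50 and 32 counts in LNCaP cells and 0, 0 and 4 in LNCaP/MUC1-C OE cells. EPCAM and these 4 passed the filter on low counts only through LNCaP cells, so their falls were fixed by it. The part of these shifts in the zinc genes was not tested, and in bulk RNA fewer cells of a type and less RNA per cell cannot be told apart.

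The metallothionein members lie in a gene cluster on the long arm of chromosome 16 (GRCh38, GENCODE release 29), where 16 metallothionein genes and pseudogenes span 119.1 kb between positions 56565049 and 56684196. In map order the members are MT2A (chr16:56608199-56609497), MT1E (chr16:56625475-56627112), MT1F (chr16:56657694-56660698), MT1G (chr16:56666731-56668065) and MT1X (chr16:56682424-56684196). MT1G is on the minus strand and the other 4 are on the plus strand, and MT1F and MT1G are neighbours, 6.03 kb apart and pointing toward each other. SLC30A1 is at chr1:211571568-211578742 and SLC39A1 at chr1:153959099-153968184, both on the minus strand. SLC39A6 is at chr18:36108532-36129385 on the minus strand, SLC39A7 at chr6:33200445-33204439 and SLC39A10 at chr2:195575977-195737702, both on the plus strand. All 10 are protein-coding, and their counts are of reads on exons as the authors assigned them. Because the metallothioneins are close paralogs, the share of each member's 50-base words that also occur in transcripts of another metallothionein was computed: 16.5% for MT1G, 7.10% for MT1E, 3.64% for MT1X, 1.58% for MT2A and 1.22% for MT1F. Of the 5, MT1G shares most with other metallothioneins, and how the authors' counting treated such reads is not stated. MT1X shares 18.3% in all, mostly with AC026461.1, a gene model that overlaps it on the same strand and is a row in none of the deposited tables. Of the transporters, SLC39A1 shares 55.2% of its words with AL358472.7, an overlapping gene model of the same strand that is not a row in them either.

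Metal response elements are shown here because they are the sequence through which zinc is known to act on these genes. The cores TGCACNC and TGCGCNC were searched on both strands in the 250 bases before the start of each gene in the RefSeq promoter table (GRCh38.p14), which matched 7 of the 10 members, and at least 1 core was found in 24.8% of the 35116 entries. MT2A had 7 cores, a number reached by 0.03% of entries, and MT1X had 4, reached by 0.37%. SLC30A1, SLC39A6 and 1 of 2 SLC39A1 entries had 1 core each, and SLC39A7 and SLC39A10 had none. The RefSeq starts differ from the GENCODE positions given above. The windows of MT2A (chr16:56608334-56608583), SLC39A7, SLC39A10 and the SLC39A1 entry with a core lie inside the GENCODE gene spans. Those of MT1X and SLC39A6 partly overlap the spans, and that of SLC30A1 lies apart from its span on the upstream side. These numbers of cores hold for the RefSeq starts only. The sequences below are on the strand of the gene, with the cores in capitals on whichever strand they match. For MT1X they are the 204 bases before the first annotated start (chr16:56682220-56682423). For MT2A they are the 30 bases of its window with the most cores (chr16:56608408-56608437), which lie inside its GENCODE span. For SLC30A1 they are the 250 bases before the RefSeq start (chr1:211579162-211579411, minus strand). The match is of letters only and says nothing of binding in these cells.
MT1X: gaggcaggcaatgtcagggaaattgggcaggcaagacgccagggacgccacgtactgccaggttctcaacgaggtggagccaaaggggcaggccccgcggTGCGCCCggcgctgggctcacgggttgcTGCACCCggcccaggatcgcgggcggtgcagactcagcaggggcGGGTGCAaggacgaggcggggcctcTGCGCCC
MT2A: cgcggcccGTGTGCAgagccgggTGCGCCC
SLC30A1: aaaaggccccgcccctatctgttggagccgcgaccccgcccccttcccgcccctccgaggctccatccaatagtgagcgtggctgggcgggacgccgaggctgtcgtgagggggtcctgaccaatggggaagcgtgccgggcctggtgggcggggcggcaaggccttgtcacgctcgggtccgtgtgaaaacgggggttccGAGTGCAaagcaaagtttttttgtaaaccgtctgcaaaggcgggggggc

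DOX treatment of the LNCaP-ER/tet-MUC1shRNA line was associated with a loss of most MT1G transcripts and with a modest rise of SLC39A1, while the abundant metallothioneins MT2A and MT1X did not pass the test. Of the 10 genes, 9 passed the filter on low counts, and the edgeR test called 2 of these at the threshold of 0.05 after adjustment over all genes. SLC39A1 was the 1 that rose, where 12.8% of all 14683 genes tested rose, and MT1G was the 1 that fell, where 14.5% of all genes fell. That split depends on the scale, since 46.8% of the genes called were higher with TMM, 59.6% with library size only and 95.2% with the deposited TPM. The 3 vehicle and 3 DOX libraries did not overlap for 3 of the 9 genes (MT1G, MT1F and SLC39A1), against 44.3% of all genes tested. The median log2 fold change was 0.16 over the 9 genes and -0.02 over all genes tested. Neither share sets these genes apart from the rest of the transcriptome, and the changes are described gene by gene. On the log2(TPM + 1) scale, the deposited values put the median log2 fold change at 0.45 over the 11404 genes left by a filter on low TPM. With no filter it was 0.18 over 24157 genes. RN7SK was at 351700 to 376500 TPM with vehicle and 246000 to 314200 TPM with DOX, and its part in these medians was not tested. On that scale MT2A (0.35), SLC39A10 (0.33), SLC30A5 (0.23), SLC30A7 (0.08), SLC30A9 (0.33) and SLC39A14 (0.05), all on the lower side in the counts, were above 0. All of them were below the median of 0.45, but only SLC30A7 and SLC39A14 were also below that of 0.18. MT1G stayed on the lower side.

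MT1G, a metallothionein expressed at low level in these cells, had 230, 118 and 103 counts with vehicle and 29, 27 and 68 counts with DOX. In CPM normalized by edgeR's TMM method, the scale of all CPM values below unless stated, these were 6.11, 4.01 and 3.66 with vehicle and 0.879, 0.909 and 1.47 with DOX. Each DOX library was below each vehicle library, and the means, 4.60 ± 1.33 and 1.09 ± 0.33 CPM (SD, n = 3), differed 4.24-fold. The log2 fold change was -2.07 ± 0.34 SE with an adjusted p of 0.00356. The decrease kept an adjusted p under 0.05 under all 15 alternatives tried, including the fit without DOX replicate 2 (-1.92, adjusted p = 0.00376), with values between -2.37 and -1.42 and adjusted p between 6.40e-09 and 0.0394. The summed level of the luminal markers also differed between these groups, as given above, and so did those of 5 immune markers (5.37 to 7.39 CPM with vehicle, 21.4 to 23.2 with DOX, 3 of 5 with 3 counts or fewer in every vehicle library) and 5 hepatocyte markers (1.90 to 2.59 and 5.02 to 7.20 CPM, 2 of 5 at that floor). In each of these last 2 lists only 1 gene was tested and rose, CD68 (6.59 to 21.8 CPM) and TTR (2.12 to 5.08 CPM), which carried most of the sum. Sums of neuroendocrine markers (0.544 to 0.960 CPM with vehicle, 1.16 to 6.87 with DOX) and basal markers (0.372 to 1.066 and 1.1 to 3.065 CPM) did not overlap either. The highest sum of both lists was that of DOX replicate 2. With vehicle, 5 of 6 neuroendocrine and 3 of 4 basal markers were at that floor. The only gene tested in each, SYP (adjusted p = 0.0831) and KRT14 (adjusted p = 0.393), was not called by edgeR's test. Sums of stromal markers overlapped. The part of these lists in the result was not tested.

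MT1F, the neighbour of MT1G in the cluster, did not follow it. Its CPM values were 3.16, 2.28 and 2.95 with vehicle and 4.28, 3.50 and 5.33 with DOX, so that every DOX library was above every vehicle library. The log2 fold change was 0.64 ± 0.26 SE, and it did not pass the test (adjusted p = 0.0948). It passed under 4 of 15 alternatives, among them the fit without DOX replicate 2 (0.81, adjusted p = 0.0311).

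MT2A, the most highly expressed metallothionein of many human cells, was at 100.0, 66.8 and 67.6 CPM with vehicle and at 59.8, 66.1 and 74.6 CPM with DOX. MT1X was at 75.9, 40.4 and 40.7 CPM with vehicle and at 64.1, 41.1 and 66.7 CPM with DOX. For both genes vehicle replicate 1 was the highest of the 6 libraries, and the groups overlapped. The log2 fold changes were -0.23 ± 0.17 SE for MT2A (adjusted p = 0.342) and 0.13 ± 0.27 SE for MT1X (adjusted p = 0.752). Without vehicle replicate 1 they were -0.01 (adjusted p = 0.954) and 0.50 (adjusted p = 0.123). Under the 15 alternatives MT1X was called as higher in 2 and changed direction in 2, and MT2A was called in none. MT1X and MT2A held 94.3% to 95.0% of the counts of the 5 metallothioneins with vehicle and 95.4% to 96.0% with DOX, so the decrease of MT1G concerned a small part of the metallothionein transcripts. MT1E was at 0 in all 3 vehicle libraries and at 1, 3 and 0 counts with DOX, at or under the floor of 3 counts in each library, and was not tested.

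**Figure D1:**
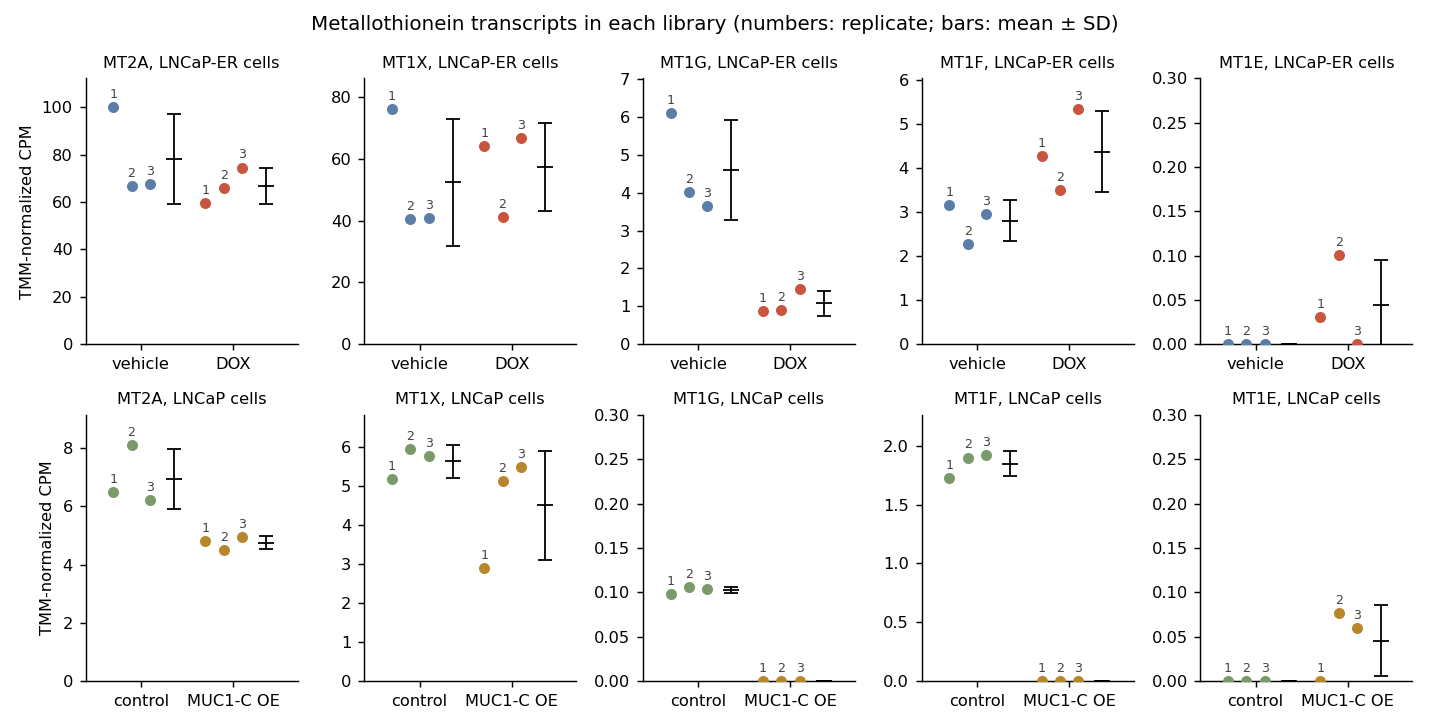
TMM-normalized CPM of the 5 metallothioneins (y axis, from 0) by group (x axis), with 1 point per library, the replicate number above it and the mean ± SD of 3 libraries at its right; the top row is the silencing experiment and the bottom row the overexpression experiment. MT1G was lower in each DOX library (0.879 to 1.47 CPM) than in each vehicle library (3.66 to 6.11 CPM), and MT1F was at 0 in the 3 MUC1-C OE libraries.

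SLC30A1, the exporter of the plasma membrane and itself a known target of MTF1, was at 33.1, 17.3 and 18.7 CPM with vehicle and at 44.2, 22.2 and 35.5 CPM with DOX. The groups overlapped, since vehicle replicate 1 was above DOX replicate 2, and the log2 fold change of 0.56 ± 0.29 SE did not pass the test (adjusted p = 0.191). It passed under 5 of 15 alternatives, among them the fits without vehicle replicate 1 (0.91, adjusted p = 0.0483) and without DOX replicate 2 (0.82, adjusted p = 0.0370). Its 3 lowest libraries, vehicle replicates 2 and 3 and DOX replicate 2, were also the 3 lowest for MT1X.

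Of the importers, SLC39A1 (ZIP1), which takes up zinc at the plasma membrane and is known as a major zinc importer of prostate epithelium, was at 56.4, 55.2 and 52.5 CPM with vehicle and at 66.3, 67.5 and 71.3 CPM with DOX. All DOX libraries were above all vehicle libraries, by 1.25-fold on the means, and the log2 fold change was 0.32 ± 0.09 SE (adjusted p = 0.0251). The direction was kept under every alternative, but leaving out 1 library ended the call for 4 of the 6 libraries (adjusted p of 0.100, 0.133, 0.0580 and 0.104 without vehicle replicate 2, vehicle replicate 3, DOX replicate 1 and DOX replicate 3) as did keeping all low-count genes (adjusted p = 0.0906) and the unfiltered TPM (0.83, adjusted p = 0.0585). It was kept without DOX replicate 2 (0.37, adjusted p = 0.0130).

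SLC39A6 (ZIP6, LIV-1), an importer of the plasma membrane first known as an estrogen-induced gene of breast cancer cells, had the highest CPM of the 10 genes in this experiment. It was at 293, 377 and 368 CPM with vehicle and at 419, 370 and 370 CPM with DOX, with overlapping groups (log2 fold change 0.16 ± 0.12 SE, adjusted p = 0.356). SLC39A10 (ZIP10), the closest relative of SLC39A6, was at 147, 157 and 160 CPM with vehicle and at 152, 128 and 123 CPM with DOX, also with overlapping groups (-0.20 ± 0.10 SE, adjusted p = 0.176). SLC39A7 (ZIP7), which releases zinc from the endoplasmic reticulum into the cytoplasm, was at 111, 99.4 and 97.5 CPM with vehicle and at 125, 101 and 124 CPM with DOX. Its DOX replicate 2 lay within the vehicle range and the other DOX libraries lay above it, so that its log2 fold change of 0.19 ± 0.11 SE (adjusted p = 0.234) became 0.32 (adjusted p = 0.0227) without that library. SLC39A7 overlaps RXRB on the other strand, and although the library kit keeps strand, the strand setting of the counting is not stated.

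**Figure D2:**
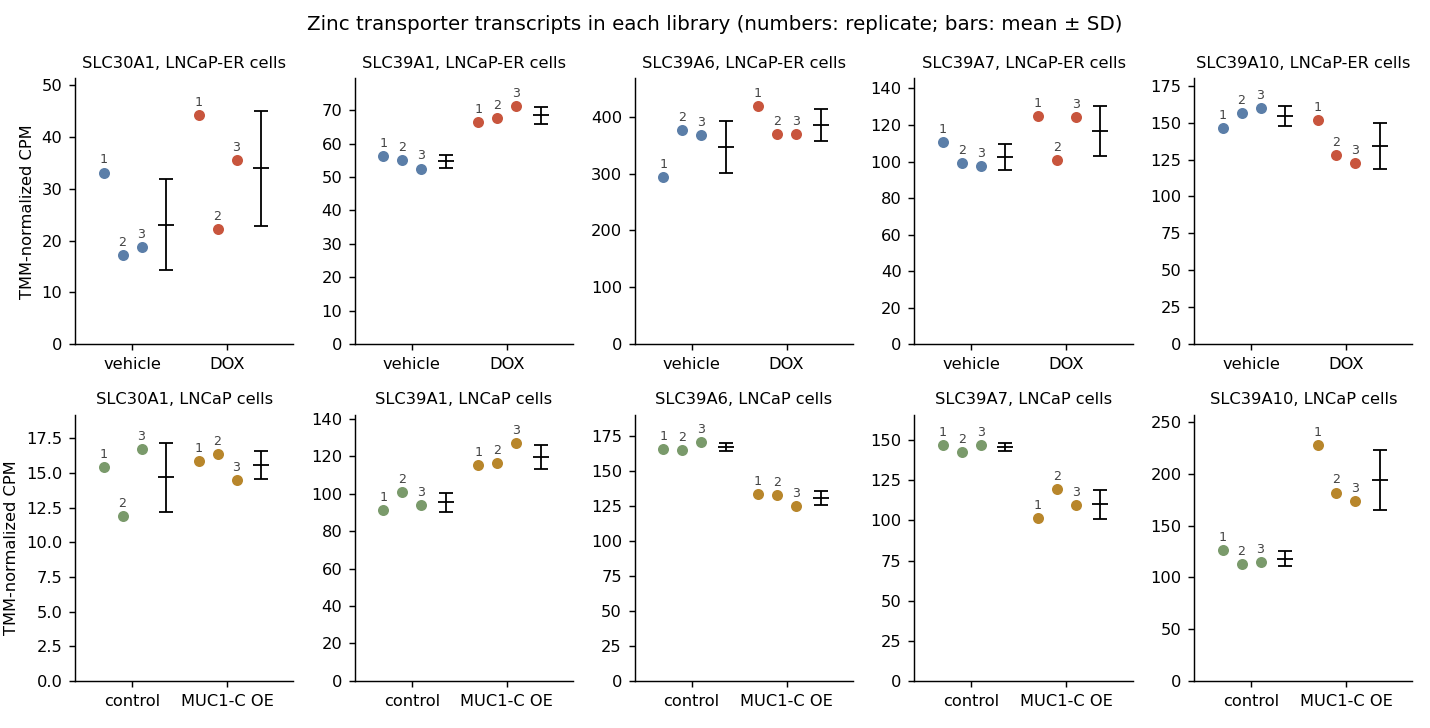
TMM-normalized CPM of the 5 zinc transporters (y axis, from 0) by group (x axis), with 1 point per library, the replicate number above it and the mean ± SD of 3 libraries at its right; the top row is the silencing experiment and the bottom row the overexpression experiment. SLC39A1 was higher in each DOX library than in each vehicle library, and higher in each MUC1-C OE library (115 to 127 CPM) than in each LNCaP library (91.4 to 101 CPM).

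In the overexpression experiment, LNCaP/MUC1-C OE cells had no detectable MT1F, less MT2A, and a different balance of importers from LNCaP cells, with more SLC39A10 and SLC39A1 and less SLC39A6 and SLC39A7. Of the 10 genes, 8 passed the filter on low counts, and 6 were called by edgeR's test after adjustment over all genes. These were 2 genes that rose, where 33.2% of all 13836 genes tested rose, and 4 that fell, where 34.1% of all genes fell. The groups did not overlap for 6 of the 8 genes, against 70.3% of all genes tested. MT1F passed the filter only through the LNCaP group and had to differ, and without it 5 of 7 genes were called, with 2 that rose and 3 that fell. With library size only the share of higher genes among all genes called was 32.3%, against 49.4% with TMM.

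MT1F had 35, 36 and 37 counts in the 3 LNCaP libraries and 0 counts in each of the 3 LNCaP/MUC1-C OE libraries. Its level was thus 1.72, 1.90 and 1.92 CPM in LNCaP cells and, against a floor of 3 counts per library, at least 9.07-fold lower in LNCaP/MUC1-C OE cells. Its neighbour MT1G was counted 2 times in each LNCaP library and 0 times in each LNCaP/MUC1-C OE library, at or under the floor in both groups, so a difference was not detectable at this depth. MT1E was likewise at 0 counts in LNCaP cells and at 0, 1 and 1 counts in LNCaP/MUC1-C OE cells.

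MT2A was at 6.50, 8.13 and 6.23 CPM in LNCaP cells and at 4.80, 4.51 and 4.96 CPM in LNCaP/MUC1-C OE cells. Each LNCaP/MUC1-C OE library was below each LNCaP library, and the means, 6.96 ± 1.03 and 4.76 ± 0.23 CPM (SD, n = 3), differed 1.46-fold. The log2 fold change was -0.54 ± 0.15 SE with an adjusted p of 0.00332, and the call was kept under all 12 alternatives (adjusted p between 4.07e-04 and 0.0280). MT1X was at 5.17, 5.97 and 5.77 CPM in LNCaP cells and at 2.91, 5.13 and 5.50 CPM in LNCaP/MUC1-C OE cells. Only replicate 1 of the LNCaP/MUC1-C OE cells was well below the LNCaP range, and the log2 fold change of -0.31 ± 0.19 SE did not pass the test (adjusted p = 0.143), although it did without LNCaP/MUC1-C OE replicate 3 (-0.50, adjusted p = 0.0497) and with library size only (-0.47, adjusted p = 0.0351). These levels rest on 43 to 154 counts per library for MT1X and MT2A.

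SLC30A1 was at 15.4, 11.9 and 16.7 CPM in LNCaP cells and at 15.9, 16.4 and 14.5 CPM in LNCaP/MUC1-C OE cells. The groups overlapped, and the log2 fold change was 0.08 ± 0.11 SE (adjusted p = 0.551).

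SLC39A10 had the largest increase of the 10 genes, from 126, 113 and 115 CPM in LNCaP cells to 228, 182 and 174 CPM in LNCaP/MUC1-C OE cells. The groups were well apart and their means differed 1.65-fold (log2 fold change 0.72 ± 0.10 SE, adjusted p = 9.20e-05). SLC39A1 rose from 91.4, 101 and 94.1 CPM to 115, 117 and 127 CPM, again without overlap (0.33 ± 0.06 SE, adjusted p = 5.38e-05). Its difference stands on a scale on which the median of all genes was at -0.01, and it was 0.17 when CPM were scaled by library size only, where the median of all genes was at -0.16.

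SLC39A6, by contrast, fell from 166, 165 and 170 CPM to 134, 133 and 125 CPM, although it is the closest relative of SLC39A10. The libraries did not overlap and the means differed 1.28-fold (-0.36 ± 0.05 SE, adjusted p = 3.65e-06). SLC39A7 fell from 147, 143 and 147 CPM to 101, 119 and 109 CPM, or 1.32-fold (-0.40 ± 0.06 SE, adjusted p = 5.51e-06). The calls of the 4 importers were kept under all 12 alternatives. Their summed level was 521 to 530 CPM in LNCaP cells and 535 to 578 CPM in LNCaP/MUC1-C OE cells.

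**Figure D3:**
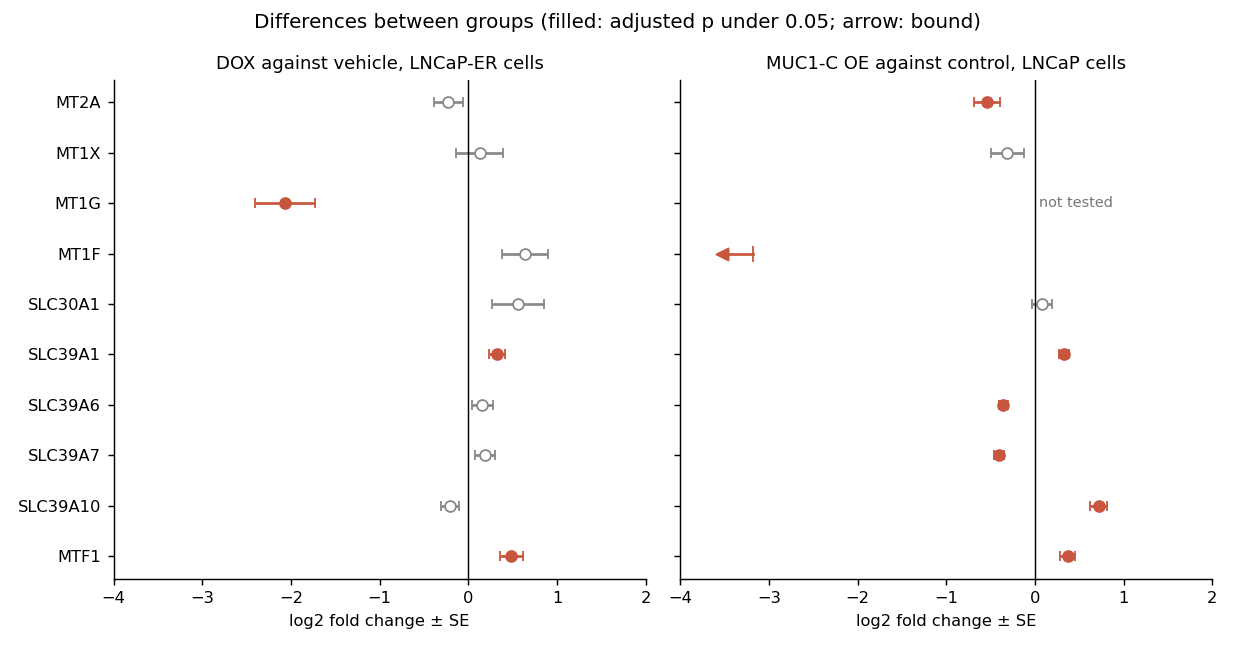
Log2 fold change ± SE (x axis) of the tested members and of MTF1 (y axis), for DOX against vehicle at the left and for MUC1-C OE against LNCaP at the right, with filled points where the adjusted p was under 0.05 and an arrow for a bound from a floor of 3 counts. MT1G at the left (-2.07) and MT1F at the right (at least 9.07-fold lower) had the largest differences, and SLC39A1 and MTF1 were on the higher side in both experiments.

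MTF1, the zinc sensor itself, was tested beside the members. It was at 79.6, 69.6 and 71.0 CPM with vehicle and at 111, 83.4 and 113 CPM with DOX, without overlap (log2 fold change 0.48 ± 0.13 SE, adjusted p = 0.0243). The call ended when any 1 of vehicle replicates 2 or 3 or DOX replicates 1 or 3 was left out (adjusted p of 0.0873 to 0.108) and was kept without DOX replicate 2 (adjusted p = 0.00112). It rose as well from 20.4, 22.0 and 19.9 CPM in LNCaP cells to 25.6, 25.3 and 29.4 CPM in LNCaP/MUC1-C OE cells (0.37 ± 0.08 SE, adjusted p = 7.32e-04). The median log2 fold change of the metallothioneins tested was -0.05 in the silencing experiment (4 genes) and -0.54 in the overexpression experiment (3 genes, with MT1F at its fitted value or at its bound), against -0.02 and -0.01 over all genes. MT1F was in the latter only through the LNCaP group, so its fall was fixed by the filter. The rest of that median is MT2A (-0.54) and MT1X (-0.31, not called).

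The other metallothionein genes listed (MT1A, MT1B, MT1H, MT1HL1, MT1M, MT3 and MT4) passed the filter in neither experiment. All 7 had 3 counts or fewer in every vehicle, LNCaP and LNCaP/MUC1-C OE library and in DOX replicates 1 and 3. Their summed level reached 1.72 CPM in DOX replicate 2, the library that stood apart in its genes at 0. Of the other zinc exporters, 8 of 10 were tested in each experiment. With DOX, none rose and 2 fell (all genes: 12.8% and 14.5%), SLC30A5 (from 130 ± 10.3 to 105 ± 5.31 CPM, adjusted p = 0.0372) and SLC30A7 (from 151 ± 7.27 to 110 ± 21.1 CPM, adjusted p = 0.0389), 2 transporters that load zinc into the secretory pathway, but SLC30A5 kept its call under only 3 of 15 alternatives, and SLC30A7 lost it without any 1 of the vehicle libraries, without DOX replicate 3 and with median-of-ratios factors (adjusted p = 0.0536). SLC30A9 had a smaller difference that missed the test (-0.22 ± 0.08 SE, adjusted p = 0.0755). In LNCaP/MUC1-C OE cells, 2 exporters rose and 5 fell (all genes: 33.2% and 34.1%). These included TMEM163, a zinc transporter of vesicles, with 69, 75 and 67 counts in LNCaP cells and 0, 0 and 1 counts in LNCaP/MUC1-C OE cells (at least 17.7-fold lower), SLC30A6 (84.4 ± 3.84 to 58.6 ± 3.21 CPM) and SLC30A4 (22.3 ± 1.21 to 13.7 ± 1.02 CPM), which carries zinc into vesicles. TMEM163 and SLC30A10 (52, 33 and 22 counts in LNCaP cells and 0, 2 and 4 in LNCaP/MUC1-C OE cells, named here after its values were seen) passed the filter only through the LNCaP group, so their place among the 5 was fixed by it.

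Of the other zinc importers, 7 of 10 were tested in each experiment, and with DOX 2 rose and 2 fell (all genes: 12.8% and 14.5%). SLC39A8 (ZIP8), an importer of zinc, manganese and cadmium, fell from 70.4 ± 1.72 to 31.2 ± 4.46 CPM (SD, n = 3, log2 fold change -1.18 ± 0.12 SE, adjusted p = 5.62e-04). On the log2(TPM + 1) scale it fell by 0.53, where the median of all genes was at 0.45 with the filter and 0.18 without. The call was lost on that scale with no filter (limma, adjusted p = 0.234). SLC39A11 rose from 20.3 ± 2.01 to 35.9 ± 3.66 CPM (adjusted p = 0.00262), and SLC39A14 (ZIP14), an importer of zinc and iron, fell from 171 ± 31.6 to 119 ± 10.0 CPM (adjusted p = 0.0243, lost in 4 of 6 fits that leave out 1 library). In LNCaP/MUC1-C OE cells 2 rose and 3 fell (all genes: 33.2% and 34.1%), among them SLC39A8 (104 ± 3.06 to 72.5 ± 2.23 CPM), SLC39A14 (169 ± 1.72 to 125 ± 3.26 CPM) and SLC39A4 (ZIP4, the importer lost in acrodermatitis enteropathica; 14.8 ± 0.86 to 9.02 ± 0.58 CPM).

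Among 11 metal regulators and copper genes, all tested with DOX, 6 rose and 1 fell (all genes: 12.8% and 14.5%). The largest were SLC31A2, a transporter of copper from endosomes (7.77 ± 0.54 to 19.6 ± 1.85 CPM, adjusted p = 6.01e-04), HMOX1, the heme-degrading enzyme of the oxidative stress response (14.1 ± 0.80 to 29.2 ± 6.54 CPM, adjusted p = 0.00306), and ATOX1, the chaperone that hands copper to the ATP7 pumps (56.2 ± 4.59 to 88.7 ± 5.80 CPM, adjusted p = 0.00262). Of 10 tested in the overexpression experiment, 2 rose and 4 fell (all genes: 33.2% and 34.1%). HMOX1 (21.9 ± 3.52 to 13.2 ± 0.49 CPM), ATOX1 (29.5 ± 0.59 to 20.3 ± 1.61 CPM) and the copper pump ATP7B (77.6 ± 0.58 to 49.4 ± 2.12 CPM) were among the genes that fell. Median log2 fold changes were -0.16, 0.17 and 0.55 for the exporters, importers and metal regulators with DOX and -0.42, 0.03 and -0.04 with MUC1-C OE. Over all genes they were -0.02 and -0.01. The value of -0.42 includes TMEM163 and SLC30A10, which passed the filter only through the LNCaP group, so it is partly fixed by the filter.

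The levels of the members were put on a scale per length with GENCODE exon lengths, and the order between genes depends on these. The lengths behind the deposited TPM are not stated and differ from them: relative to SLC39A1, the counts and TPM of SLC39A7 imply a length ratio of 5.14, against 0.725 in GENCODE. In TPM with vehicle, SLC39A7 (3.51 to 5.32) was below SLC39A1 (9.72 to 13.9) and MT1G (16.2 to 36.5), and MT1X and MT2A (181 to 457) were above SLC39A6 (56.5 to 65.2). The places given below hold for GENCODE lengths only. In LNCaP-ER cells with vehicle, SLC39A6 was highest (91.4 ± 9.39 CPM per kb, SD, n = 3, by library total), followed by MT2A (77.2 ± 21.6) and MT1X (62.5 ± 26.7). The ranges of these 3 genes overlapped, so their order is not settled. SLC39A7 (40.8 ± 4.22), SLC39A10 (26.9 ± 0.38) and SLC39A1 (15.7 ± 1.03) came next, each without overlap with the one before. MT1G (6.01 ± 1.95), SLC30A1 (4.14 ± 1.72) and MT1F (3.72 ± 0.70 CPM per kb) followed, each overlapping with its neighbour, and MT1E was at 0. In LNCaP cells the 4 importers led, in the order SLC39A7 (62.5 ± 1.26 CPM per kb), SLC39A6 (47.8 ± 0.86), SLC39A1 (29.7 ± 1.50) and SLC39A10 (22.3 ± 1.42), without overlap between neighbours. MT2A (7.40 ± 1.08 CPM per kb) and MT1X (7.22 ± 0.51) lay below them and overlapped with each other. SLC30A1 (2.83 ± 0.48) and MT1F (2.66 ± 0.15 CPM per kb) also overlapped.

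The metallothioneins summed to 109 to 187 CPM by library total in LNCaP-ER cells with vehicle and to 14.3 to 16.9 CPM in LNCaP cells, a ratio of the means of 8.82. MT2A was at 64.0 to 101 CPM in the first and at 6.57 to 8.55 CPM in the second, MT1X at 38.7 to 76.9 and 5.47 to 6.27 CPM, and MT1G at 3.49 to 6.19 and 0.104 to 0.111 CPM. The gap was smaller for MT1F (2.18 to 3.20 and 1.82 to 2.03 CPM). SLC39A1 went the other way, with 50.1 to 57.1 CPM in LNCaP-ER cells and 96.6 to 106 CPM in LNCaP cells, as did SLC39A7 (93.0 to 112 and 150 to 155 CPM). The lines were sequenced and counted in separate tables, so cell line, shRNA vector, vehicle and experiment cannot be told apart here and no test was made.

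**Figure D4:**
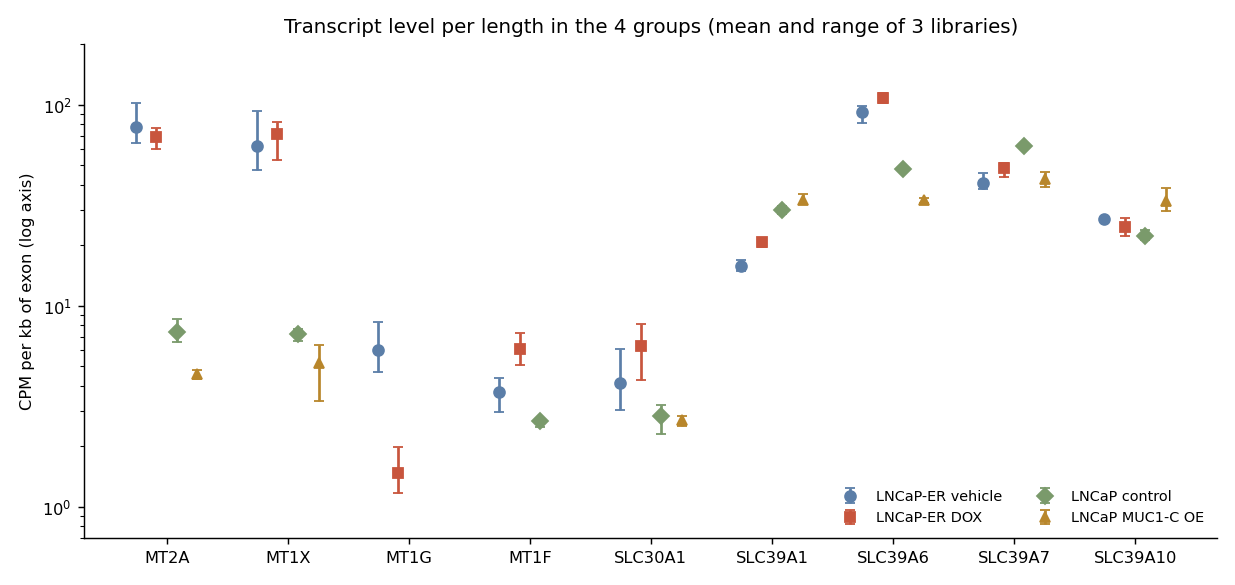
CPM by library total per kb of annotated exon (y axis, log scale) of 9 members (x axis) in the 4 groups, as the mean of 3 libraries with bars from the lowest to the highest; a group with 3 counts or fewer in every library is left out, as is MT1E. MT2A and MT1X are at 62.5 to 77.2 CPM per kb on average in LNCaP-ER cells with vehicle and at 7.22 to 7.40 CPM per kb in LNCaP cells, while the importers differ less between the lines.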

How the data were processed

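Poly(A)-selected, stranded RNA-Seq libraries were made from cells cultured in triplicate; p-values measure the spread among these cultures only. The authors aligned reads to GRCh38 (hg38) with STAR and deposited whole-number counts per gene symbol, without normalization, and for the silencing experiment TPM values; STAR and DESeq2 are given without versions in the submitters' processing notes, and annotation, counting tool and gene lengths are not given in the sources used here. The overexpression table held 12 further columns of other cell lines, not used. Groups and replicates came from the sample labels, and these labels carry an sh prefix for the MUC1-C OE cells that the paper does not use.

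Each experiment was fitted on its own 6 libraries with edgeR 4.0.16 (R 4.3.3): TMM, filterByExpr, robust quasi-likelihood test, Benjamini-Hochberg adjustment over all genes, threshold 0.05. Differences are log2 fold changes ± SE, and CPM are means ± SD. A level of 3 counts per library was the floor, which covers counting error only, as the reads carry no molecular identifiers. Replicates of each group differed beyond counting error (chi-square divided by its degrees of freedom, 2.27 to 69.1). Alternatives were DESeq2 1.42.0, median-of-ratios factors, library size only, 2 filters, the replicate number as a block, leaving out each library, and limma 3.58.1 on log2(TPM + 1) or log2(TPM + 0.1), with genes of at least 1 TPM in 3 libraries or with no filter. The edgeR step was tested on simulated data. CPM per kb used the exon union of GENCODE basic transcripts. Exons, 50-base words and motifs were computed in Python 3.11.15. The genes named are MUC1, the 10 members, MTF1 and, from each list of related genes, up to 3 genes with the smallest p in each experiment. Members and lists were chosen with earlier results of these data known.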

Additional observations from a re-analysis of the deposited data

How the results depend on the processing

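In the silencing experiment 4006 genes, 2 of them members, had an adjusted p under 0.05. Leaving out 1 library gave 2002 to 5243 genes, with 2200 without vehicle replicate 2, 2002 without vehicle replicate 3 and 2067 without DOX replicate 3, and 1 to 5 members, with 1 (MT1G) in each of the fits without vehicle replicate 2, vehicle replicate 3, DOX replicate 1 or DOX replicate 3, and 5 without DOX replicate 2. No filter left 1 member. TPM gave 7 members with either pseudocount, and 1589 genes with no filter. MUC1 ranged from -1.83 to 0.62 and MT1X from -0.0337 to 0.497 when 1 library was left out. Directions reversed with TPM for MT2A (0.35 with pseudocount 1 and no filter, 0.36 with 0.1), SLC39A10 (0.33 and 0.35), SLC30A5 (0.23 and 0.24), SLC30A7 (0.077 and 0.083), SLC30A9 (0.33 in each) and SLC39A14 (0.048 and 0.0488). The causes were not tested.

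In the overexpression experiment 9312 genes and 6 members passed, with 8486 to 9512 genes and 6 to 7 members when 1 library was left out, and the other alternatives stayed within 1.5 times these counts. SLC30A1, not called, was at -0.075 with library size only and between -0.0469 and 0.183 when 1 library was left out.

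Replicate numbers are shared between groups, and whether they pair the samples is not stated in the sources used here. Deviations of same-numbered libraries correlated at 0.0868, -0.0028 and -0.0739 in the silencing experiment. In the overexpression experiment they correlated at -0.03, -0.15 and -0.04. So few correlations over all genes cannot decide whether cultures were paired. With a replicate block, 4226 genes and 3 members (SLC30A1 added, adjusted p = 0.0108) passed in the first, 8965 genes and 6 members in the second, and MUC1 in the first was at -0.62. MT1F in the overexpression experiment, MT1G and MT1E rest on few counts, where depth limits what can be seen.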
